A study of Mus musculus with 7 samples.

Results

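This account covers 10 genes of the Notch pathway in embryonic mouse cortical neurons: the receptors Notch1 and Notch2, the ligands Dll1, Dll3 and Jag1, the fringe enzyme gene Mfng, and the transcription factor genes Hes1, Hes5, Hes6 and Hey1. They were taken by symbol from a count table of 26286 genes, and each of the 10 symbols matched 1 row. Of the 10, 9 passed the filter on low counts that left 13681 genes for testing, and Hes1 did not. The libraries are polyA RNA from cortical neurons of male C57BL/6 embryos at embryonic day 16.5, 3 labelled wild type and 4 labelled KAT7 mutant, and the design text gives them as separate mice. KAT7 is a histone acetyltransferase. For the Kat7 allele and for how the neurons were obtained, the sources used here give nothing.

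Notch signalling passes between touching cells. A Delta-like or Jagged ligand on one cell binds a Notch receptor on its neighbour, proteases cut the receptor, and its intracellular domain enters the nucleus and joins the DNA-binding protein RBPJ to switch on genes of the Hes and Hey families. In the developing cortex, newborn neurons and committed progenitors display the ligands, while Hes1 and Hes5 in radial glia, the stem cells of the cortex, hold back the proneural factors and so keep those cells dividing. Hes6 is the exception in its family: it acts against Hes1 and is known to favour neuronal differentiation.

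Library totals ran from 8272487 to 8813060 counts. Kat7 stood at 96.6 to 103 CPM (counts scaled to a common library size) in wild type and 0.351 to 1.22 CPM in KAT7 mutant, which fits the labels. All 12 cortical neuron markers were tested, and their summed level was 12569 to 13239 CPM in wild type and 11774 to 12470 CPM in KAT7 mutant, so the labelled cell type was present in each library. Markers of radial glia, the cells in which Notch signalling is best known, summed to 792 to 838 CPM in wild type and 527 to 583 CPM in KAT7 mutant. The largest part of these sums was 1 gene, Ptprz1, with means of 457 and 280 CPM. KAT7 mutant replicate 1 stood apart on the second principal component of all tested genes, at 23.1 against -9.75 to 1.65 for the other libraries. Without that library the same 4 members were called. Their log2 fold changes were then -1.09 for Hes5, -0.61 for Mfng, -0.27 for Hes6 and 0.51 for Jag1.

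Of the 9 tested members, 3 fell in KAT7 mutant (Hes5, Mfng and Hes6), 1 rose (Jag1) and 5 were not called by the edgeR quasi-likelihood test at an adjusted p under 0.05. Over all tested genes the same rule called 28.9% (13.1% higher and 15.8% lower), and nothing particular to the members is read from 4 calls among 9 genes. The median log2 fold change of the 9 was -0.10, against 0.00 for all tested genes. The 4 called members were also the 4 without overlap between genotypes, a pattern that 35.3% of all tested genes showed (16.5% with the mutant higher and 18.8% with it lower). Levels per library are shown in the plot of the 10 members.

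**Figure D1:**
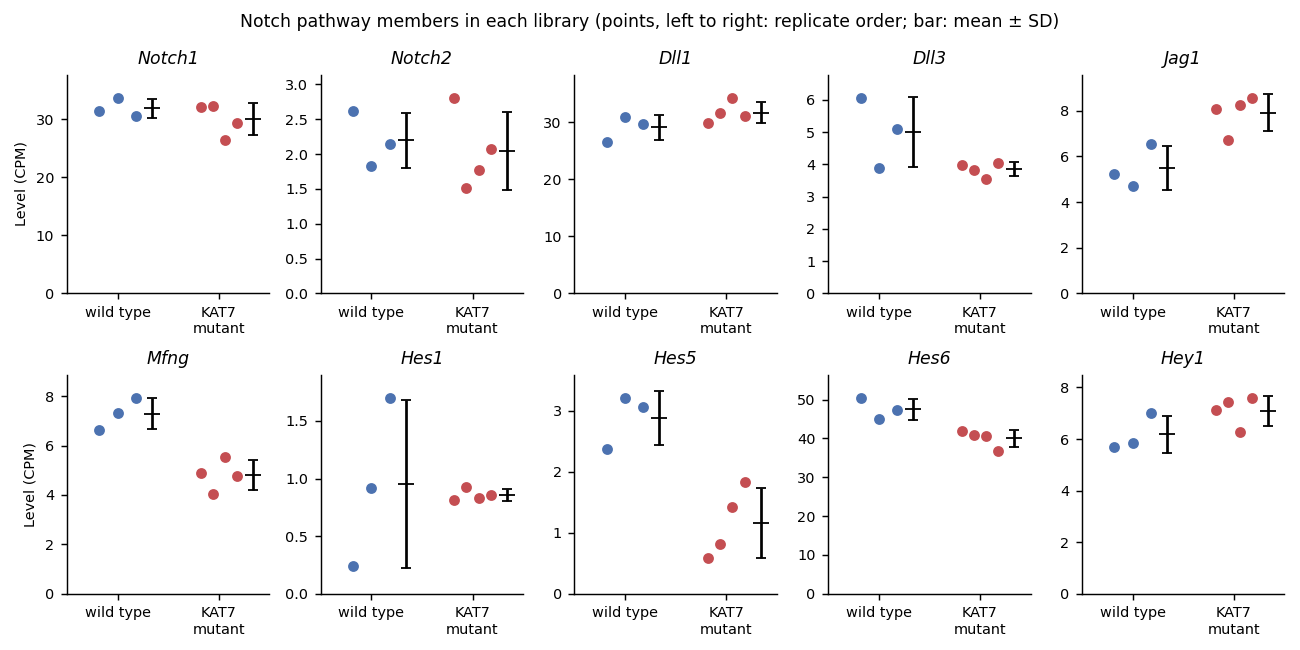
Level in CPM (linear axis from 0) of each of the 10 members in 3 wild type and 4 KAT7 mutant libraries. Points are libraries and the bar beside them is the mean ± SD. Hes5, Mfng and Hes6 lay lower and Jag1 higher in every mutant library than in any wild type library, and the other 6 overlapped.

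Compared per kilobase of the deposited gene length (RPKM), the members spanned a wide range in wild type. Hes6 was the highest at 35.6 ± 2.02 RPKM (SD, n = 3), followed by Dll1 at 8.48 ± 0.649, Mfng at 3.98 ± 0.346, Notch1 at 3.36 ± 0.169 and Hey1 at 2.80 ± 0.328. The first 4 did not overlap their neighbours in the order. Dll3 at 2.32 ± 0.502 overlapped both Hey1 above it and Hes5 at 2.26 ± 0.347 below it. Jag1 at 1.04 ± 0.182, Hes1 at 0.655 ± 0.503 and Notch2 at 0.209 ± 0.0374 closed the order, and each of these overlapped the next. Hes6 and Dll1, both associated with cells that are becoming neurons, thus led, and Hes1 and Hes5 ranked low in these neuron libraries.

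The order in KAT7 mutant was the same at both ends and differed in the middle. Hes6 stood at 30.0 ± 1.65 RPKM (SD, n = 4), Dll1 at 9.24 ± 0.548, Hes1 at 0.591 ± 0.0342 and Notch2 at 0.194 ± 0.0533. Hey1 at 3.22 ± 0.267 and Notch1 at 3.17 ± 0.288 now ranked above Mfng at 2.63 ± 0.334, though Notch1 overlapped both of them. Jag1 at 1.49 ± 0.153 ranked above Hes5 at 0.913 ± 0.447, the reverse of wild type, and the ranges of these genes overlapped in KAT7 mutant.

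Neither receptor was called. Notch1, the main receptor of cortical progenitors, had 31.3, 33.6 and 30.6 CPM in wild type replicates 1 to 3 and 32.1, 32.2, 26.5 and 29.3 CPM in KAT7 mutant replicates 1 to 4. The genotypes overlapped, and the mutant library with the lowest level was replicate 3. The log2 fold change was -0.08 (SE 0.09) with a 95% interval of -0.26 to 0.10 and an edgeR adjusted p of 0.511. Notch2 was read from 13 to 24 counts a library, at 2.61, 1.83 and 2.15 CPM in wild type and 2.80, 1.51, 1.77 and 2.08 CPM in KAT7 mutant. Its values overlapped throughout, and the 95% interval of its log2 fold change was wide, -0.67 to 0.47 (edgeR adjusted p = 0.813). At an unadjusted p under 0.05, edgeR, DESeq2 and limma-voom each gave 0 of the 2 receptors.

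Among the ligands Jag1 rose, and Dll1 and Dll3 were not called. Jag1, a Jagged ligand, had 5.22, 4.69 and 6.56 CPM in wild type and 8.06, 6.72, 8.27 and 8.56 CPM in KAT7 mutant. Every mutant library was above every wild type library, but mutant replicate 2 exceeded wild type replicate 3 by little. The log2 fold change was 0.52 (SE 0.16), at an edgeR adjusted p of 0.0196. The call was lost in DESeq2 (adjusted p = 0.0644), and in edgeR without wild type replicate 1 (0.0665), without wild type replicate 2 (0.111) or without KAT7 mutant replicate 4 (0.0514). Over its alternatives the adjusted p was 0.0116 to 0.111 and the log2 fold change 0.42 to 0.67.

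Dll1, the Delta-like ligand by which differentiating cells activate Notch in their neighbours, had 26.6, 30.9 and 29.8 CPM in wild type and 29.8, 31.7, 34.3 and 31.1 CPM in KAT7 mutant. Wild type replicate 1 was the lowest library and KAT7 mutant replicate 3 the highest, and the genotypes overlapped. Its log2 fold change was 0.12 (SE 0.08), with an interval of -0.05 to 0.30 and an edgeR adjusted p of 0.298. Dll3 is a divergent ligand that is known to inhibit Notch within the cell that makes it. It had 6.06, 3.89 and 5.09 CPM in wild type and 3.97, 3.83, 3.54 and 4.03 CPM in KAT7 mutant. The mutant libraries lay close together at the low end, and wild type replicate 2 was among them. The log2 fold change was -0.38 (SE 0.19), with an interval of -0.78 to 0.02 and an edgeR adjusted p of 0.146.

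Mfng, which encodes manic fringe, fell. Fringe enzymes add a sugar to Notch receptors in the Golgi and thereby alter how strongly the receptor answers Delta-like and Jagged ligands. Mfng had 6.65, 7.32 and 7.92 CPM in wild type and 4.91, 4.06, 5.55 and 4.77 CPM in KAT7 mutant. The genotypes did not overlap. The log2 fold change was -0.60 (SE 0.16), a level of 0.660 times wild type, at an edgeR adjusted p of 0.00795. The call was kept in every alternative run, with an adjusted p of 0.00467 to 0.0439.

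Hes5 had the largest change of the 10 members. It encodes a repressor that is a direct target of the Notch and RBPJ complex in neural stem cells. Hes5 was read from few reads, with 20, 28 and 27 counts in wild type and 5, 7, 12 and 15 counts in KAT7 mutant, which were 2.37, 3.20 and 3.05 CPM and 0.584, 0.812, 1.42 and 1.83 CPM. All 4 mutant libraries lay below all 3 wild type libraries, and they differed among themselves by more than the wild type libraries did. The log2 fold change was -1.31 (SE 0.31), a level of 0.403 times wild type, with an interval of -1.97 to -0.65 and an edgeR adjusted p of 0.00348. The call was kept in every alternative run, with log2 fold changes of -1.61 to -1.09 and an adjusted p of 0.000221 to 0.0231.

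The sequence just upstream of Hes5 is shown because it holds the letters that RBPJ is known to bind. RBPJ binds GTGGGAA, and both strands were searched in RefSeq windows of 300 bases around gene starts (GRCm38.p6), of which 50 lie after the start. Windows were matched to 7 of the 10 members, 9 windows in all, leaving Hes1, Hey1 and Mfng unsearched. Of the 7, Hes5 held 2 matches and the other 6 held 0. Of all 32851 windows, 6.38% held at least 1 match and 0.256% held 2 or more. The 250 bases before the Hes5 start, at chr4:154960673-154960922 on the plus strand, are given with the matches in capitals.
Hes5: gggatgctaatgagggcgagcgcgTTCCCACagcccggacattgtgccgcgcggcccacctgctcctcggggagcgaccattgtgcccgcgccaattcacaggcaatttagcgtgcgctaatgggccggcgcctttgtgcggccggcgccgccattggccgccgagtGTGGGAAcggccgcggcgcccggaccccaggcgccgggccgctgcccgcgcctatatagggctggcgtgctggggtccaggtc
In Hes5 the first match, read on the opposite strand, begins 226 bases before the start, the other begins 83 bases before it, and 136 bases separate them. Of the other pathway genes described below, 42 had windows, 54 windows in all. Of these 54 windows 6 held a match, each in a different gene: Hey2 with 2, and Aph1a, Hes7, Lfng, Psen2 and Spen with 1 each. The 6.38% above is likewise a share of windows. Lfng was called lower, Psen2 (-0.26) and Spen (0.13) were not called, and the other 3 were not tested. Nrarp, Notch3, Adam17 and Dtx1, which fell, held 0 matches in these windows. Dtx4, which also fell, had no window and was not searched. A match describes the letters and does not show that RBPJ was bound in these cells. The E-box CANNTG, which proneural factors bind, was in 7 of the members' 9 windows, and 72.3% of all windows held it.

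Hes6 fell by less, and from a much higher level. It had 50.3, 45.0 and 47.3 CPM in wild type and 41.8, 40.8, 40.6 and 36.8 CPM in KAT7 mutant. The genotypes did not overlap, and KAT7 mutant replicate 4 was the lowest library. The log2 fold change was -0.25 (SE 0.07), a level of 0.843 times wild type, at an edgeR adjusted p of 0.0130. The call was lost without wild type replicate 1 (-0.21, edgeR adjusted p = 0.0704), and over its alternatives the adjusted p was 0.00934 to 0.0704.

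Hey1, a Hes-related repressor and Notch target, was not called. It had 5.70, 5.84 and 7.01 CPM in wild type and 7.13, 7.42, 6.26 and 7.58 CPM in KAT7 mutant, and the groups overlapped through wild type replicate 3 and KAT7 mutant replicate 3. Its log2 fold change was 0.20 (SE 0.15), with an interval of -0.12 to 0.52 and an edgeR adjusted p of 0.366. The interval of Hey1 does not reach that of Hes5, but the difference between the 2 genes was not tested.

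Hes1, the other main effector of Notch in radial glia, was at the limit of detection. It had 2, 8 and 15 counts in wild type and 7, 8, 7 and 7 counts in KAT7 mutant, or 0.237, 0.915 and 1.70 CPM and 0.818, 0.927, 0.827 and 0.856 CPM. The wild type libraries spread on both sides of the mutant libraries. A fit without the count filter gave which is -0.16 (SE 0.44) as log2 fold change, at edgeR adjusted p = 0.846, and this depth could not show a change of the size seen in Hes6. Of the genes that code for the other Hes and Hey factors, Hes2, Hes3, Hes7, Hey2 and Heyl, none passed the count filter, and together they summed to 0.696 to 1.66 CPM in the 7 libraries.

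Within families, the members' shares of summed RPKM showed which gene carried most of the transcript. Hes6 made up 86.1 ± 2.65% (SD, n = 3) of the Hes1, Hes5, Hes6 and Hey1 sum in wild type and 86.3 ± 2.00% (SD, n = 4) in KAT7 mutant. The share of Hes5 was 4.41 to 6.38% in wild type and 1.29 to 4.36% in KAT7 mutant, and that of Hey1 was 6.11 to 7.54% and 8.12 to 10.4%. Neither pair of ranges overlapped, and for Hes5 they nearly met. The sum of the 4 genes was 41.3 ± 1.60 RPKM in wild type and 34.7 ± 1.14 RPKM in KAT7 mutant. A share depends on this sum, in which Hes6, the largest part, was lower in KAT7 mutant. Hey1 itself overlapped in CPM and was not called, so its larger share is not read as a rise of Hey1. Notch1 held 71.3 ± 2.10% of the receptor sum in wild type and 74.1 ± 3.06% in KAT7 mutant, with overlap. Dll1 held 40.9 ± 2.20% and 40.8 ± 2.51% of the ligand sum, and Jag2, which is no member, held a like share of 41.2 ± 1.63% and 43.6 ± 1.79%. Mfng held 7.07 ± 0.622% of the fringe sum in wild type and 4.70 ± 0.731% in KAT7 mutant, while Rfng, the radical fringe gene, held 90.3 ± 0.655% and 93.7 ± 1.10%. These shares were not tested.

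**Figure D2:**
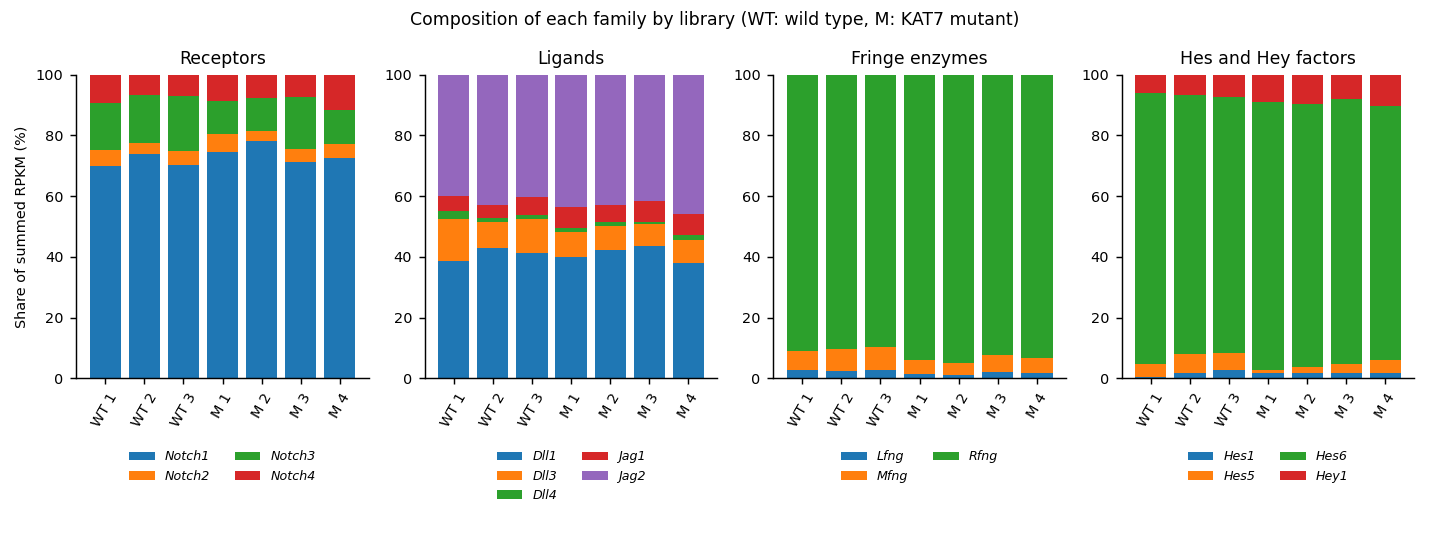
Percent of summed RPKM that each gene of a family held in each library (WT 1 to 3, wild type; M 1 to 4, KAT7 mutant). Notch1, Rfng and Hes6 make up most of their families in every library, Dll1 and Jag2 share the ligands, and the orange Mfng and Hes5 segments are smaller in the mutant libraries.

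The rest of the pathway was read from a list of 54 genes, of which 44 were tested. Of these, 6 fell, 2 rose and 36 were not called, so 18.2% were called against 28.9% of all tested genes. Their median log2 fold change was -0.01. The genotypes did not overlap in 14 of the 44, 5 with the mutant higher and 9 with it lower. Of all tested genes, 35.3% showed no overlap, 16.5% higher and 18.8% lower. The largest falls were in Dtx4, which encodes a Deltex ubiquitin ligase that acts on Notch receptors, and in Nrarp, a Notch target whose product inhibits the Notch complex in a feedback loop. Dtx4 had 236, 240 and 208 CPM in wild type and 124, 116, 110 and 108 CPM in KAT7 mutant, which is -0.99 (SE 0.06) as log2 fold change, at edgeR adjusted p = 1.71e-10. Nrarp had 14.1, 14.2 and 14.6 CPM in wild type and 6.54, 7.77, 7.09 and 8.07 CPM in KAT7 mutant, which is -0.96 (SE 0.12) as log2 fold change, at edgeR adjusted p = 6.16e-06. Both were at about the same level within each genotype and far apart between genotypes. Dtx1, another Deltex gene, fell by 0.17, a call lost without wild type replicate 3 (edgeR adjusted p = 0.122), and the cell fate regulators Numb and Numbl were not called, at 0.08 and -0.06.

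In the steps before the nucleus, most genes were not called. Of the 9 tested genes of receptor cleavage, 1 fell: Adam17, a metalloprotease. Its mean was 24.0 ± 1.00 CPM (SD) over the 3 wild type and 17.0 ± 0.304 CPM (SD) over the 4 mutant libraries, or -0.50 as log2 fold change, at an edgeR adjusted p of 0.000330. Adam10, the protease that makes the ligand-dependent cut, stood at -0.11 ± 0.05 (SE). It was not called, though each mutant library was lower than any wild type library. Of the other receptors, Notch3 fell by 0.55 (edgeR adjusted p = 0.0227) and Notch4 was not called at 0.04. Notch3 lost its call in DESeq2 (adjusted p = 0.0949) and without wild type replicate 2 or 3 or KAT7 mutant replicate 2 or 4 (edgeR adjusted p = 0.0565 to 0.0860). Lfng, lunatic fringe, had 3.32, 3.32 and 3.39 CPM in wild type and 1.99, 1.39, 2.36 and 2.32 CPM in KAT7 mutant, with a log2 fold change of -0.73 ± 0.24 (SE) and an edgeR adjusted p of 0.0243. Its call was lost in DESeq2 (adjusted p = 0.110), without any 1 of the wild type libraries and without KAT7 mutant replicate 2 (edgeR adjusted p = 0.0537 to 0.0825). Rfng, the most abundant fringe gene, was not called, with an interval of -0.07 to 0.16.

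Of the 4 other ligand genes tested, 2 rose. Dner, a neuronal transmembrane protein with Delta-like repeats, rose: its mean was 110.6 ± 4.89 CPM (SD) over the 3 wild type and 134.6 ± 11.5 CPM (SD) over the 4 mutant libraries, which is 0.28 (SE 0.06) as log2 fold change, at edgeR adjusted p = 0.00198. Dlk2, a Delta-like protein without the domain that activates Notch, rose by 0.40 (edgeR adjusted p = 0.0108), a call lost without wild type replicate 1 or 3 (0.0520 and 0.0524). Jag2, the relative of Jag1, had 32.8, 36.7 and 34.5 CPM in wild type and 38.7, 38.1, 38.9 and 44.6 CPM in KAT7 mutant. Its genotypes did not overlap, and it missed the threshold, at 0.21 ± 0.08 (SE) and an edgeR adjusted p of 0.0545, which it passed without KAT7 mutant replicate 1 (0.0491). The ligand endocytosis genes, among them Mib1 at 0.04 and Mib2 at 0.01, were called in 0 of 4, with 0 at an unadjusted p under 0.05 in edgeR, DESeq2 and limma-voom.

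Of the 9 tested genes of the nuclear complex, 0 were called by edgeR, DESeq2 or limma-voom. At an unadjusted p under 0.05 edgeR gave 3, all higher, DESeq2 gave 2 and limma-voom 3. Rbpj, the DNA-binding core of the complex, had 96.4, 101.8 and 104.4 CPM in wild type and 106.3, 110.7, 114.5 and 115.3 CPM in KAT7 mutant. The mutant libraries were all higher, by a log2 fold change of 0.15 ± 0.06 (SE) that missed the threshold (edgeR adjusted p = 0.0524) and passed it with RLE factors (0.0460) and without KAT7 mutant replicate 1 (0.0292). The most abundant genes of the class were Hdac2 and Spen, at 0.05 and 0.13.

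Of the proneural and related neurogenic factor genes reported here, 3 were tested and none was called by edgeR, DESeq2 or limma-voom, with 1 at an unadjusted p under 0.05 in each tool. The most abundant were Bhlhe22, at 0.17 (SE 0.06) with an edgeR adjusted p of 0.0591, and Neurod1, at -0.04 (SE 0.08). Bhlhe22 passed the threshold without KAT7 mutant replicate 1 (edgeR adjusted p = 0.00393) and with no count filter (0.0104). Neurog2, which drives the excitatory lineage, was read from 13 to 19 counts a library and stood at 0.12 (SE 0.27).

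**Figure D3:**
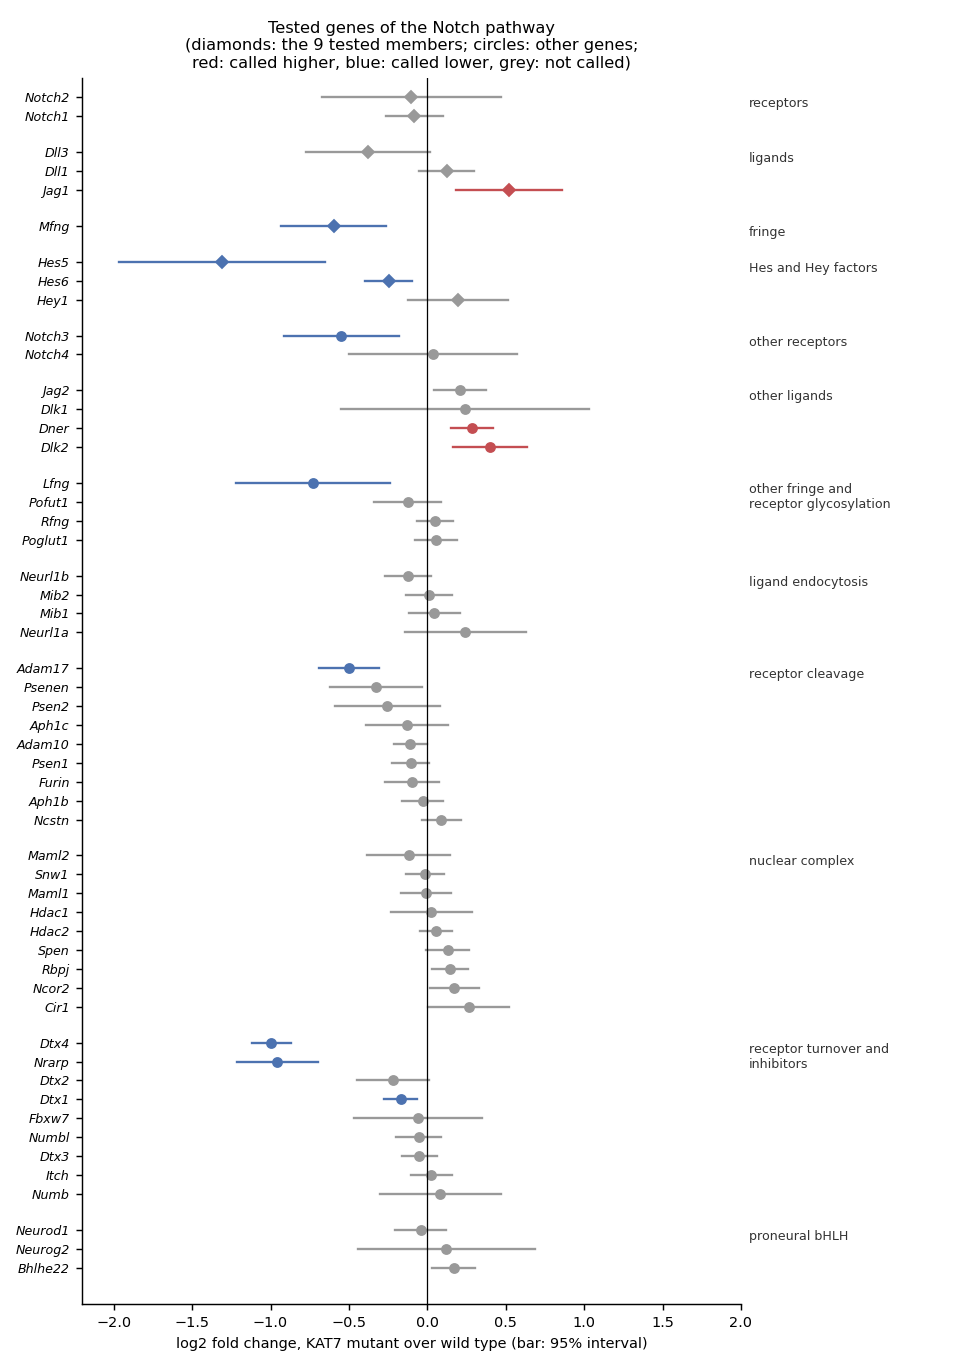
Log2 fold change of KAT7 mutant over wild type with its 95% interval for the 9 tested members (diamonds) and the 44 other tested pathway genes (circles), by class. Hes5 is the lowest at -1.31 and Jag1 the highest at 0.52; red marks genes called higher, blue genes called lower and grey genes not called.

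Markers of other cell types were read beside these results, against the 28.9% of all tested genes that edgeR called (13.1% higher and 15.8% lower). Radial glia markers fell in 6 and rose in 1 of 12, including Pax6 (-1.48), Tnc (-1.37) and, in the other direction, the endothelin receptor gene Ednrb (1.10). The other 5, Sox2, Sox9, Fabp7, Hopx and Prom1, were not called. Radial glia make Hes5 and Nrarp, and the part of radial glia markers in the falls of Hes5 and Nrarp was not tested. In bulk samples fewer cells of a type and less RNA per cell cannot be told apart. Dividing cell markers fell in 2 of 8 by edgeR, a share close to that of all tested genes, and DESeq2 called 0 of them, with 2 falls at an unadjusted p under 0.05. Their sums were 128 to 139 CPM in wild type and 113 to 129 CPM in KAT7 mutant, and the called members were Ccnb2 (-0.57) and Mki67 (-0.21). Intermediate progenitor markers rose in 2 and fell in 2 of 7 by edgeR (1 and 1 by DESeq2). Gadd45g stood at 1.02, Rhbdl3 at 0.85 and Eomes at -0.40. Gadd45g had 174 counts in KAT7 mutant replicate 1 and 67 to 77 in the other mutant libraries. Eomes overlapped between genotypes, and the other called fall, Insm1 at -0.39, did not. Cortical neuron markers rose in 4 and fell in 4 of 12, led by Stmn2 (-2.02), Rbfox3 (0.45) and Elavl4 (0.44).

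Interneuron and ventral telencephalon markers rose in 5 and fell in 1 of 10 tested, with Gad2 at 0.76, Gad1 at 0.70, Dlx5 at 0.55 and, in the other direction, Sst at -0.49. Only 2 of the 10, Gad2 and Dlx2, had no overlap between genotypes, and Gad1, Dlx5 and Sst overlapped. Dlx1, Dlx6, Lhx6 and Npy were not called. The call of Sst (edgeR adjusted p = 0.0467) was lost in DESeq2 and limma-voom, which called 0 lower, and DESeq2 called 4 higher. Their sums of 301 to 468 CPM in wild type and 379 to 520 CPM in KAT7 mutant overlapped, and the defining markers Gsx2 and Nkx2-1 did not pass the count filter. Oligodendrocyte lineage markers rose in 4 of 7, with Sox10 at 1.87, Olig2 at 1.67 and Olig1 at 1.54, and summed to 29.6 to 35.4 CPM and 35.6 to 54.2 CPM. The part of these markers in the members' results was not tested. Endothelial cells express Jag1, Hey1, Dll4 and Notch4. Endothelial markers summed to 6.65 to 7.81 CPM in wild type and 6.97 to 9.41 CPM in KAT7 mutant, and edgeR called 0 of 4 tested (1 rise at an unadjusted p under 0.05). DESeq2 and limma-voom also called 0, with 0 and 1 at an unadjusted p under 0.05. Pecam1 had 6, 11 and 6 counts in wild type and 22, 14, 14 and 9 counts in KAT7 mutant, at 0.97 with an edgeR adjusted p of 0.0561. The most abundant endothelial markers, Kdr and Flt1, stood at 0.10 and -0.14, and Cldn5 had at most 1 count in a library. The part of these markers in the rise of Jag1 was not tested. Pericytes express Notch3. Of 5 pericyte markers 1 was tested, Pdgfrb, which fell by 0.73, and the 5 summed to 6.11 to 8.07 CPM and 3.39 to 5.56 CPM, whose part in the fall of Notch3 was not tested. Astrocyte markers rose in 1 and fell in 2 of 5 tested, with Gfap at -1.70, Sparcl1 at 1.13 and Aldoc at -0.97. They summed to 212 to 224 CPM and 285 to 295 CPM, and the higher sum reflects Sparcl1, with means of 71.6 and 157 CPM. Of the untested astrocyte markers, Aqp4 had 7, 14 and 7 counts in wild type and 0, 0, 1 and 3 in KAT7 mutant. Gjb6 was at 0 in all 7 libraries. Microglia markers rose in 4 of 6 tested by edgeR and in 2 by DESeq2, with Csf1r at 1.05, C1qb at 0.71 and C1qa at 0.63, and summed to 17.6 to 20.5 CPM and 27.1 to 35.9 CPM.

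The members were also set against the mean log2 CPM of the 12 radial glia markers in the same library, a level that was 4.43 ± 0.07 (SD, n = 3) in wild type and 4.04 ± 0.14 (SD, n = 4) in KAT7 mutant. On this relative scale Hes5 stood at -2.80 ± 0.17 in wild type and -3.65 ± 0.54 in KAT7 mutant. The mutant libraries were lower without overlap, though mutant replicate 4 at -3.02 lay next to wild type replicate 1 at -2.99. Mfng stood at -1.52 ± 0.13 and -1.71 ± 0.06, also without overlap, though mutant replicate 1 at -1.65 lay next to wild type replicate 1 at -1.59. Hes6 stood at 1.15 ± 0.15 and 1.29 ± 0.18, with overlap. The share of all tested genes without overlap on this scale was not computed. Relative to the markers, Jag1 was higher by 0.90, Hey1 by 0.58 and Dll1 by 0.51 in KAT7 mutant. The marker mean itself changed by -0.39, so a gene at an unchanged level stands higher on this scale in KAT7 mutant. Hey1 and Dll1 were not called and overlapped in CPM, so no rise of their own level is read from this scale. The 12 markers did not move together: Pax6 (-1.48) and Tnc (-1.37) fell by more than Hes5 (-1.31), and Ednrb rose by 1.10. The position of a member on this scale therefore depends on which markers are averaged, and it was not tested.

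**Figure D4:**
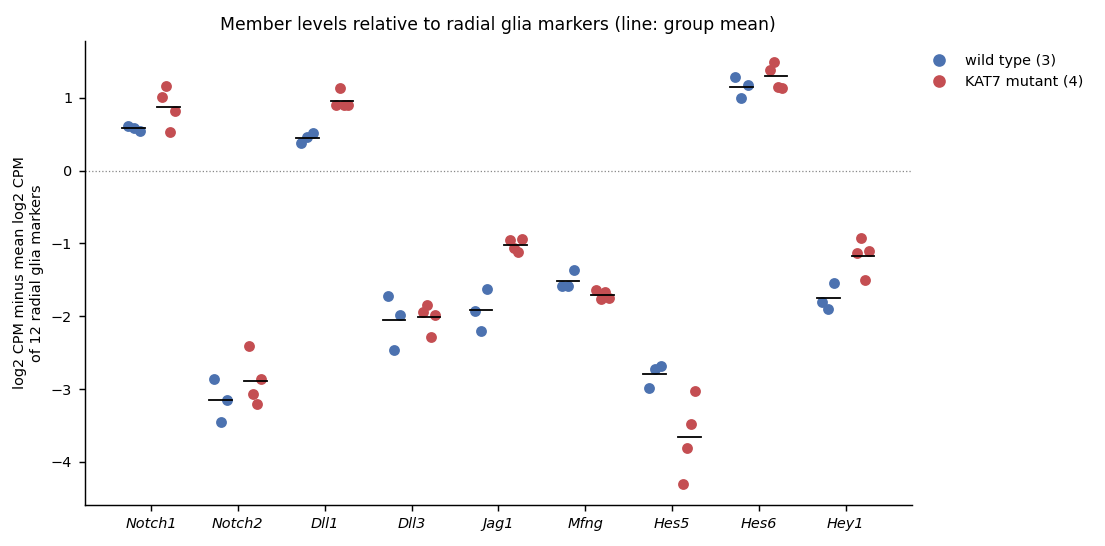
Log2 CPM of each tested member minus the mean log2 CPM of 12 radial glia markers in the same library. Points are libraries and lines are group means. Relative to this average, Hes5 and Mfng lie lower in each mutant library than in any wild type library, and both nearly meet. Hes6 overlaps, and Dll1, Jag1 and Hey1 lie higher in each mutant library than in any wild type library. For Hey1 the genotypes also nearly meet. The average itself is lower in the mutant libraries, so an unchanged gene lies higher on this scale. Dll1 and Hey1 overlapped in CPM.

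For the member with the largest fall (Hes5), the one with the largest rise (Jag1) and the most abundant one (Hes6), the tested genes with the most similar profile over the 7 libraries were listed, by the root-mean-square difference of log2 CPM around each gene's mean. The profile nearest to Hes5 was that of Ston1, at a difference of 0.22, with 5.95 CPM in wild type and 2.73 CPM in KAT7 mutant on average. Wnt5b and Gpr165 followed at 0.26. The log2 fold changes of Ston1, Wnt5b and Gpr165 were -1.13, -1.14 and -1.80, against -1.31 for Hes5. Their differences from Hes5 were larger than those found for the genes nearest to Jag1 and Hes6. Nearest to Jag1 were Magi3 at 0.06, Rest at 0.10 and Hace1 at 0.11, which had log2 fold changes of 0.48, 0.49 and 0.42. Hes6 was nearest to Cdr2l at 0.03, Got1 at 0.04 and Prpsap1 at 0.04, with log2 fold changes of -0.28, -0.23 and -0.20. These genes share libraries and normalization with the members.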

How the data were processed

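RNA-seq of polyA RNA was counted by the authors per gene, and the deposited table holds whole-number read counts with an Entrez identifier and a gene length. Counts were made with featureCounts on mm9, per the submitters' processing notes. For the aligner, annotation and strand setting, the sources used here give nothing, and overlapping genes may share reads. Symbols came from an NCBI table (GRCm38.p6), which named 24176 of 26286 identifiers. Samples were grouped by title, and columns matched through descriptions.

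Genes were filtered with filterByExpr by group (minimum count 10), scaled by TMM, and tested two-sided with the edgeR 4.0.16 quasi-likelihood test in R 4.3.3 in a model of genotype alone. Benjamini-Hochberg adjustment covered the 13681 genes, and an adjusted p under 0.05 was a call. P-values measure the spread between these animals. Each SE was derived from the log2 fold change and its F statistic, and intervals are 95%. CPM use TMM-adjusted library sizes, and RPKM divide CPM by the deposited length. Libraries of 8272487 to 8813060 counts give genes with few counts wide intervals. No 2 libraries of a genotype were alike to within counting error (chi-square per gene 2.03 to 3.62). The fit was tested on simulated data.

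Named were all members, Kat7, called pathway genes, up to 3 called markers a list, the 2 most abundant genes of lists with no call, and the 3 genes nearest in profile to each of 3 members (mean CPM of at least 1); other genes were chosen after their values were seen. The members and lists were chosen with earlier results of these data known. Alternatives were RLE, upper-quartile or no factors, no filter or a CPM of 1 in 3 libraries, DESeq2 1.42.0, limma-voom 3.58.1, a robust fit, a replicate block, an adjusted p under 0.01 and each library left out. A result for 1 gene is not reported here, and list counts leave that gene out.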

Additional observations from a re-analysis of the deposited data

How the results depend on the processing

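Over 17 alternatives, no called member changed direction, and Hes5 and Mfng kept their calls in all of them. Jag1 decided the count of members called higher, which was 0 in DESeq2 (with 1 at an unadjusted p under 0.05), 0 at an adjusted p under 0.01 and 0 to 1 with 1 library left out. The count of members called lower was 2 to 3 with 1 library left out. Other pathway genes called higher numbered 2, or 4 with no count filter and 1 at an adjusted p under 0.01, and 1 to 5 with 1 library left out, the lowest without wild type replicate 1 or 3. The highest count came without KAT7 mutant replicate 1, when Jag2, Rbpj and Bhlhe22 passed the threshold, and it was 4 without KAT7 mutant replicate 3. Other pathway genes called lower numbered 6, or 3 at an adjusted p under 0.01, and 3 to 6 with 1 library left out, the lowest without wild type replicate 3. Over all tested genes, 1034 were called higher at an adjusted p under 0.01 against 1793 under 0.05. With the replicate number as a block, 2 members were called lower and 1 higher, and Hes6 stood at -0.21 (edgeR adjusted p = 0.0581). KAT7 mutant replicate 4 had no wild type library of its number, so under the block it added nothing to the genotype comparison. Notch3 stood at -0.51 under the block (edgeR adjusted p = 0.0589), and calls over all genes were 1460 higher and 1943 lower. The deviations of same-numbered libraries correlated at -0.03 to 0.02 and no wild type library correlated best with its own number, so the numbers were not taken as pairs. The cause of these changes was not tested. Hes1, Notch2 and Hes5, at 2 to 28 counts a library, are limited by depth.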

Other observations

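Several Notch-related genes fell below the count filter and so were left out of the tests. Hey2, a Hes-related repressor, had 8, 6 and 11 counts in wild type and 4, 4, 5 and 3 counts in KAT7 mutant. Neurod4, a proneural factor, had 7, 5 and 11 counts in wild type and 3, 2, 2 and 0 counts in KAT7 mutant, and Neurog1, whose genotypes overlapped, had 3, 5 and 2 against 2, 0, 1 and 0. The receptor cleavage gene Aph1a went the other way, with 2, 0 and 1 counts in wild type and 6, 4, 5 and 2 counts in KAT7 mutant. Its genotypes nearly met, at 0.237 CPM in wild type replicate 1 and 0.245 CPM in KAT7 mutant replicate 4. Whether the annotation gave reads of Aph1a to other rows was not checked. The genotypes overlapped in the remaining pathway genes below the filter, Dll4, Maml3, Hes2, Hes3, Hes7 and Heyl. The genes with counts given here were chosen after their values were seen and were not tested. At such counts a lack of overlap is not read as a change.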
